A study of Drosophila melanogaster with 3 samples.

Results

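The genes described here encode the eukaryotic initiation factors (eIF) and elongation factors (eEF) of Drosophila melanogaster. They were chosen by symbol, as all protein-coding genes whose name begins with eIF or eEF followed by a digit, which gave 51 of 13945 protein-coding genes on 6 chromosome arms. The data are chromatin immunoprecipitation followed by sequencing (ChIP-seq) for nautilus (nau), the fly member of the MyoD family of muscle transcription factors. Whole embryos of both sexes, 4 to 24 h old, carried a stable insertion that expresses nau with a C-terminal GFP, named nau-eGFP in the descriptions, and chromatin sheared to 200 to 800 bp was precipitated with an antibody to GFP. There is 1 group with 3 biological replicates, all of the strain nau-GFP and all carrying the transgene, so the comparisons are between genes and not between conditions. The lists come from whole embryos and do not tell in which cells a place was bound. Region lists measure no expression, so the tissue label was not checked against marker genes.

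Initiation begins when eIF2 brings the initiator tRNA to the small ribosomal subunit, helped by eIF1, eIF1A and eIF5. The exchange factor eIF2B recharges eIF2 with GTP, eIF3 is the large scaffold on the small subunit, and the eIF4 factors bind the mRNA cap and unwind the leader. In elongation, eEF1 delivers aminoacyl-tRNAs to the ribosome and eEF2 moves it along the mRNA. The core factors are used in nearly all cells, which need not hold for every gene of the list. MyoD factors bind DNA at E-boxes (CANNTG) and are best known for switching on muscle genes.

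The authors deposited a list of 30000 regions for each replicate, 1 of the same length for the pooled replicates, and a shorter list of the regions that passed a threshold on the irreproducible discovery rate (IDR), which here are the strongest of the pooled list. Each region has a signal value, the authors' own measure of enrichment, which ranks regions within a list (rank 1 is the strongest). In the IDR list it ranged from 166.3 to 2783 with a median of 244.1. A gene was counted when an IDR region had its summit within the gene or at most 2 kb upstream of it, which is called the window of the gene. A promoter summit was one within 500 bp of the start of any of its transcripts (TSS). For each replicate, its strongest regions are the same number of top-ranked regions as the IDR list holds. Read depth is not given in the sources used here.

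Many promoters of ribosomal protein and other translation genes in flies start transcription in a pyrimidine-rich element called TCT. The sequences below show words of its form near a TSS in factor genes. Such a word is a match of letters and not a shown start of transcription. The search was for the words TCTTTT and TCTTTC, and for CCTTTT and CCTTTC, on the sense strand, with the C before TTT within 10 bp of a TSS. Such a word was present in 12 of the 51 genes, or 23.5%, whereas 4.09% of all 13945 genes had one. The 12 were eIF1A, eIF3c, eIF3e, eIF3f1, eIF3g1, eIF3i, eIF3m, eIF4A, eEF1alpha1, eEF1delta, eEF2 and eEF5. The following 8 are shown from 20 bases before to 20 bases after the TSS, or from 9 bases before it in eIF1A and eEF2, where another transcript covers that stretch. They run 5′ to 3′ on the sense strand with the word in capitals (build dm6, sequence from RefSeq Release 6).
eIF1A (chr3R:18274689-18274718, plus strand): aaaccgtccacctctagtCCTTTTcacttt
eIF3e (chr3L:16786921-16786961, minus strand): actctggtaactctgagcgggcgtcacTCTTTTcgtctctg
eIF3f1 (chr3R:4714162-4714202, minus strand): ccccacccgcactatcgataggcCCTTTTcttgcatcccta
eIF3g1 (chrX:2610316-2610356, minus strand): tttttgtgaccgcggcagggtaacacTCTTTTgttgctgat
eIF3i (chr2L:4967755-4967795, minus strand): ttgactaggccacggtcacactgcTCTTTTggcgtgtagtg
eIF4A (chr2L:5981744-5981784, plus strand): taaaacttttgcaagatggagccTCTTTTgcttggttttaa
eEF1delta (chr2L:10232487-10232527, plus strand): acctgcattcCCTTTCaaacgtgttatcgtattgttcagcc
eEF2 (chr2L:21682096-21682125, minus strand): gcagcgcctcgcTCTTTCctgtcgaaacgc

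In the sequences shown the C before TTT lay 4 to 10 bp downstream of the annotated TSS in 7 genes and 9 bp upstream of it in eEF1delta. The common initiator words TCAGTT and TCAGTC, with the A within 10 bp of a TSS, were present in 2 of the 51 genes, eIF2gamma and eEF1alpha2, against 14.4% of all genes. No gene had both kinds of word. The distance limit matters for the count of TCT words: within 5 bp 6 genes had one (2.13% of all genes), within 20 bp 19 genes (7.62% of all genes), and at the gene start alone 7 genes (2.75% of all genes).

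An IDR summit was found for 15 of the 51 factor genes, or 29.4% (95% Wilson interval 18.7 to 43.0, counting error only), against 17.9% of all protein-coding genes. A promoter summit was found for 11 of them, 21.6% (interval 12.5 to 34.6), against 10.6% of all genes. In the strongest regions of replicates 1, 2 and 3 the window count was 16, 17 and 16 factor genes, against 19.2%, 18.6% and 19.0% of all genes, which gives 32.0% ± 1.13 against 18.9% ± 0.297 (SD, n = 3). The promoter counts were 10, 10 and 11 factor genes, against 11.5%, 11.4% and 11.4% of all genes, or 20.3% ± 1.13 against 11.4% ± 0.0745 (SD, n = 3). The share of factor genes lay above that of all genes in each of the 3 replicates. No test was made of these shares, because genes are not replicates and the list was chosen with earlier results known. The median length was 1966 bp for the factor genes and 2166 bp for all genes.

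The whole pooled list gave shares closer to those of all genes. With all 30000 pooled regions, 20 of the 51 factor genes (39.2%) had a summit in the window, against 40.7% of all genes. At promoters the whole list gave 16 genes (31.4%), against 29.9% of all genes. For 31 of the 51 genes the pooled list held no region in the window. The promoter count was 6 with the stronger 1883 regions (5.86% of all genes). It was 7 without replicate 1, 7 without replicate 2 and 7 without replicate 3, where a region had to be among the strongest of both other replicates (6.83%, 7.08% and 6.76% of all genes).

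**Figure D1:**
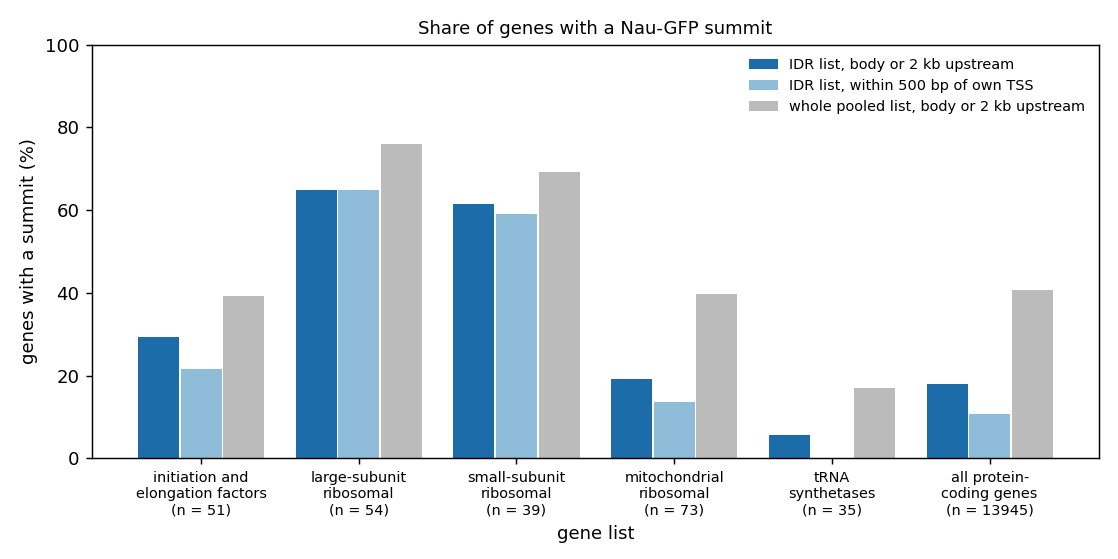
Share of genes with a summit, in percent, for the initiation and elongation factor genes, 4 related gene lists and all protein-coding genes. Bars show the IDR list in the body or 2 kb upstream, the IDR list within 500 bp of an own TSS, and the whole pooled list. The factor genes stand at 29.4%, 21.6% and 39.2%, against 17.9%, 10.6% and 40.7% of all genes.

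By role, the counts of genes with a summit ran as follows. Elongation factors had one in 5 of 7 genes, start-site and initiator tRNA factors in 4 of 9, eIF4 genes in 3 of 13, eIF2B subunits in 1 of 5 and eIF3 subunits in 2 of 16, while eIF6 had none. The share was 71.4% for the elongation and 44.4% for the start-site factors, against 17.9% of all genes, while the shares of the eIF4 genes (23.1%), the eIF3 subunits (12.5%) and the eIF2B subunits lay near that of all genes. At promoters the counts were 4 of 7, 2 of 9, 3 of 13, 0 of 5 and 2 of 16, against 10.6% of all genes. In each replicate 5 of the 7 elongation genes had a summit in the window, whereas eIF3 had 3, 2 and 3 of 16. Genes named as a further copy of another factor had an IDR summit in 0 of 11 cases. An approximate upper limit for this share is 27.3% (3 divided by 11), which is above the 17.9% of all genes. The further copies were eIF3d2, eIF3f2, eIF3g2, eIF4E3, eIF4E4, eIF4E5, eIF4E6, eIF4E7, eIF4G2, eIF4H2 and eEF1alpha2. The 15 genes with a summit are thus all among the other 40 (37.5%).

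**Figure D2:**
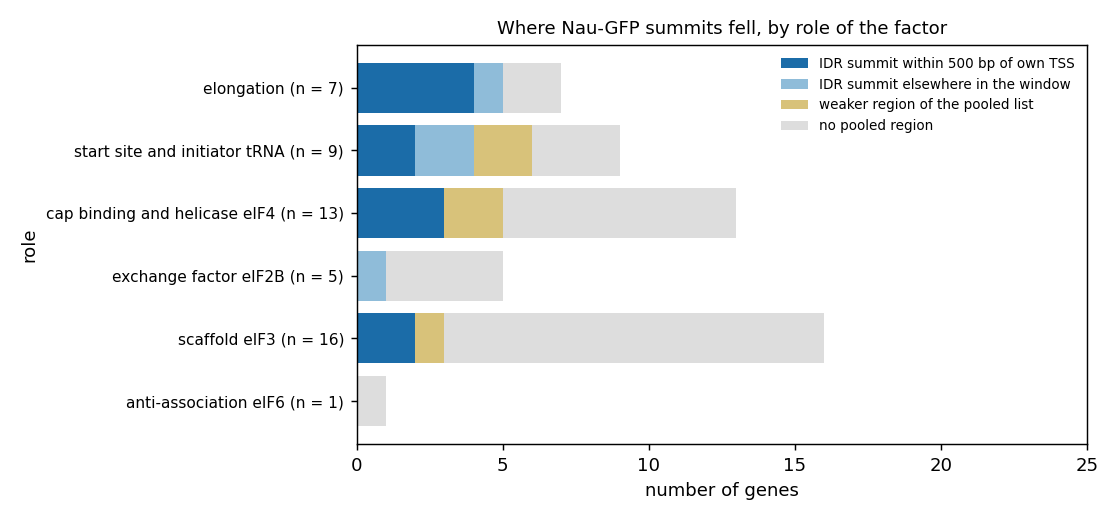
Number of genes in each role group by where the summit fell. Dark blue marks an IDR summit within 500 bp of an own TSS, light blue one elsewhere in the window, yellow a weaker region of the pooled list and grey no pooled region. Of the 7 elongation genes 5 had an IDR summit, and of the 16 eIF3 genes 2.

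Among the elongation factors, eEF1gamma, a subunit of the exchange factor for eEF1alpha, had the strongest promoter summit. Its region (3R, 29219909 to 29220341, signal value 870.8, IDR rank 132) peaked 16 bp upstream of its TSS, with no TSS of another gene within 500 bp. It ranked 78, 334 and 122 in replicates 1, 2 and 3, with summits 27, 3 and 42 bp upstream of the TSS. Replicate 2 ranked it lowest, and all 3 replicates placed it within their 500 strongest regions. The eEF1gamma gene had no TCT word.

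The translocase gene eEF2 had a summit 9 bp inside the transcript, in the 5′ UTR (2L, 21681950 to 21682236, signal value 409.8, rank 716). Its ranks were 1013, 619 and 851, 828 ± 198 (SD, n = 3). The gene eEF5 encodes the fly form of the hypusinated factor also called eIF5A, and it had a pair of promoter summits. The stronger (2R, 24057718 to 24057944, rank 805) lay 16 bp upstream of a TSS and ranked 811, 1960 and 567. The weaker, 184 bp downstream of a TSS in an intron, had rank 1607 in the IDR list, but the replicates ranked it 4961, 9343 and 854. Replicate 3 alone had that second summit among its strongest regions.

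The gene eEF1alpha1, which encodes the factor that carries aminoacyl-tRNA, had 3 IDR summits and shares its upstream region with ERp60, a protein disulfide isomerase gene on the opposite strand whose TSS is 156 bp away. The strongest (2R, 11889814 to 11890093, signal value 468.3, rank 560) lay 1186 bp upstream of eEF1alpha1 and ranked 962, 436 and 569. The nearest TSS to it was that of ERp60, at 1030 bp. The other 2 were promoter summits. The first lay in an intron, at 11892080, where the gene starts at 11891135, and was 42 bp upstream of a TSS inside the gene. It had IDR rank 2667 and ranked 4396, 3735 and 2130. The second, 177 bp upstream of the gene and 21 bp from the TSS of ERp60, had IDR rank 3684. It ranked 6597, 3975 and 4264, so no replicate had it among its strongest regions. For eEF1delta the summit (2L, 10231047 to 10231506, rank 2200) lay 1230 bp upstream and 415 bp from the TSS of ova, the nearest gene. Its ranks were 1791, 2727 and 3473. The gene eEF1beta had a region in replicate 1 alone, at rank 7803, and eEF1alpha2 had none in any list.

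Among the factors of the start site and the initiator tRNA, eIF1, which guards start codon choice, had a pair of summits between its TSS and that of the ribosomal protein gene RpL28, which lies 381 bp away on the opposite strand. The stronger (3L, 3222876 to 3223158, signal value 546.8, rank 407) was 85 bp from the RpL28 TSS and 296 bp from that of eIF1. It ranked 204, 890 and 549. The other (3L, 3223048 to 3223507, rank 1329) was 63 bp upstream of eIF1 and ranked 1262, 1735 and 1500, 1499 ± 237 (SD, n = 3). Both were among the strongest regions of all 3 replicates.

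The eIF2 subunits were weaker. The gene eIF2beta had a summit 290 bp upstream (3L, 12526918 to 12527085, rank 2353) that ranked 1291, 4024 and 5361, so replicate 1 alone had it among its strongest regions. Replicate 3 had another region there, 34 bp inside the 5′ UTR, at rank 3046. For eIF2alpha, the subunit phosphorylated under stress, the summit lay 1889 bp upstream and 217 bp inside eIF4H1 (X, 16448652 to 16449111, rank 3612), which encodes a cofactor of the helicase eIF4A and is transcribed in the opposite direction. This 1 summit counts for both genes, and it ranked 3815, 2780 and 9515. The gene eIF2gamma had no region in any list. In eIF5B, the GTPase that joins the ribosomal subunits, both summits were intronic and far from its TSS, at 27698 and 25450 bp. The nearest TSS to both was that of another gene, sty, at 7970 and 10218 bp. The stronger summit (3L, 3432756 to 3432987, rank 777) ranked 1364, 530 and 1001. The weaker, with IDR rank 3246, ranked 2985, 4866 and 8344, so replicate 1 alone had it among its strongest regions.

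The highest rank of all belonged to the window of eIF2Bbeta, a subunit of the exchange factor for eIF2. That region (X, 2703664 to 2704086, signal value 2732) held rank 2 in the IDR list and ranks 1, 3 and 1 in the replicates. Its summit, however, lay 687 bp upstream of eIF2Bbeta and 32 bp from the TSS of Ugalt, a UDP-galactose transporter gene on the opposite strand, so it was not a promoter summit of eIF2Bbeta by the 500 bp rule. In the replicates the summit was 684, 684 and 687 bp upstream of eIF2Bbeta. Counting only summits whose nearest TSS is the gene's own left no eIF2B gene. The genes eIF2Balpha, eIF2Bdelta and eIF2Bepsilon had no region in any list. For eIF2Bgamma, replicates 1 and 3 ranked a region 2380 and 2383, beside the TSS of CG8187 and 1285 and 1277 bp upstream of eIF2Bgamma. Neither replicate 2 nor the pooled list held a region in that window.

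**Figure D3:**
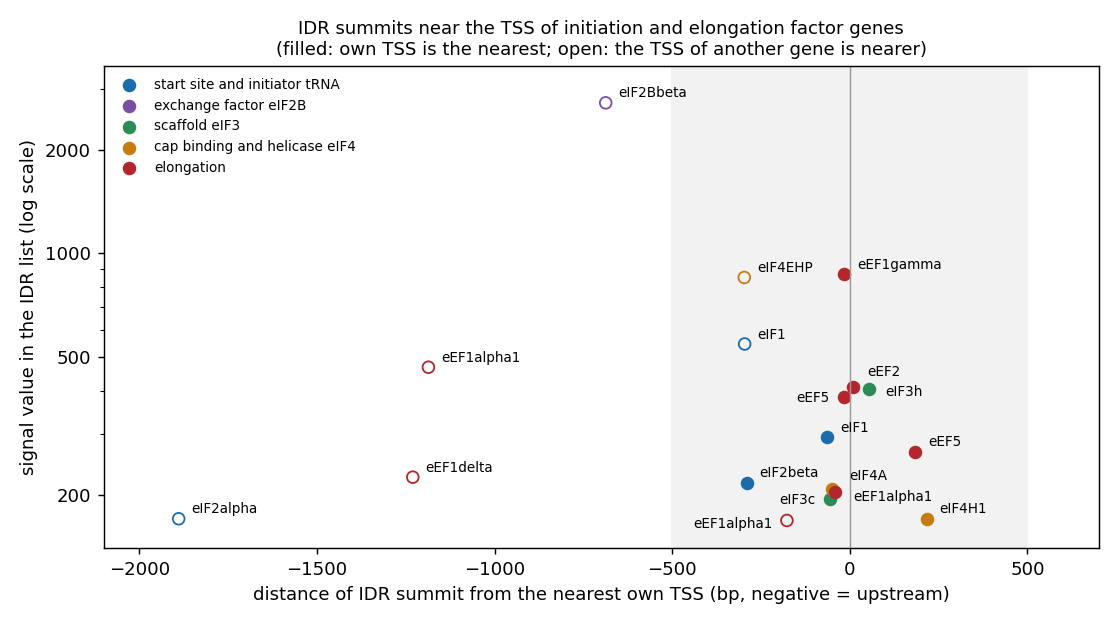
Each point is an IDR summit within 2 kb of a factor gene's TSS. The horizontal axis is the distance in bp from the nearest own TSS (negative is upstream), the vertical axis the signal value in the IDR list on a log scale. Filled points have their own TSS as the nearest, open points are nearer to another gene, and the shaded band marks 500 bp. The summit of eIF2Bbeta stands highest at 2732 and 687 bp upstream, and that of eEF1gamma at 870.8 and 16 bp upstream.

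Of the eIF3 scaffold, eIF3h and eIF3c had promoter summits. That of eIF3h (2L, 5052681 to 5052892, signal value 406.0, rank 727) lay 55 bp downstream of the nearest of its TSSs, in a coding exon. The TSS of senju was also within 500 bp. Its ranks of 899, 828 and 771 were the closest together of these genes after those of eIF2Bbeta, 833 ± 64.1 (SD, n = 3). The summit of eIF3c (2R, 17665393 to 17665852, rank 2885) was 55 bp upstream and ranked 2281, 7750 and 1951, with replicate 2 apart from the others. No pooled or replicate region was found for eIF3a, eIF3b, eIF3e, eIF3g1, eIF3i, eIF3j, eIF3k and eIF3m. The gene eIF3l had a pooled region at rank 10082, and eIF3f1 a region in replicate 2 alone, at rank 9005. Of the eIF3 genes with a TCT word, which are eIF3c, eIF3e, eIF3f1, eIF3g1, eIF3i and eIF3m, eIF3c alone had an IDR summit. Over all protein-coding genes with such a word, 37.2% of 570 had one in the window.

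Among the eIF4 genes, eIF4EHP, whose product binds the cap and represses translation, had 4 summits in a gene of 45884 bp (3R, 24063077 to 24108960). Its strongest (3R, 24108941 to 24109401, signal value 852.1, rank 142) lay 297 bp upstream and 79 bp from the TSS of CG18428, 376 bp away on the opposite strand. The replicates divided this place differently. Replicate 1 had 1 summit there, 293 bp upstream at rank 128, while replicate 2 had summits 159 and 363 bp upstream at ranks 130 and 462, and replicate 3 had them 164 and 365 bp upstream at ranks 200 and 542. The other summits of eIF4EHP were intronic. That of IDR rank 1964 ranked 1957, 2209 and 1805. That of IDR rank 2215 ranked 1713 and 1907 in replicates 2 and 3, with no summit within 100 bp in replicate 1. That of IDR rank 3204 ranked 7485, 3230 and 4188. The nearest TSS to each was that of Syx1A, a syntaxin gene that lies inside eIF4EHP, at 6576, 206 and 3154 bp.

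The helicase gene eIF4A, which starts at 5981764, had a summit inside the gene at 5982543 (2L, 5982313 to 5982772, rank 2565). This summit lay in an exon, 51 bp upstream of a TSS within the gene. Replicates 1 and 2 ranked it 1894 and 3075, and replicate 3 had no summit within 100 bp, although one 15 bp downstream of a TSS held rank 3544 there. Upstream of eIF4A, with a TSS of the profilin gene chic as the nearest, each replicate had a further strong region at its own place. It lay 1951 bp upstream at rank 3023 in replicate 1, 1646 bp at rank 1703 in replicate 2 and 1170 bp at rank 2044 in replicate 3. The chic TSS was 288, 17 and 113 bp away, and none of these regions matched an IDR summit within 100 bp. Replicate 1 also had a summit 61 bp upstream of the start of eIF4A, at rank 2562. The genes eIF4B, eIF4E3, eIF4E5, eIF4E6 and eIF4E7 had no region in any list. The cap-binding gene eIF4E1 had a region 36 bp inside the transcript at pooled rank 10913, with ranks 5740, 7977 and 5086. The scaffold gene eIF4G1 had one at pooled rank 16329. In eIF4G2 the replicates listed regions at ranks 5802, 3817 and 4397, and the pooled list none. For eIF4E4 a region stood at rank 21805 in replicate 1, and for eIF4H2 regions at ranks 24945 and 22824 in replicates 1 and 2. The gene eIF6, whose product keeps the large ribosomal subunit from joining too early, had no region.

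**Figure D4:**
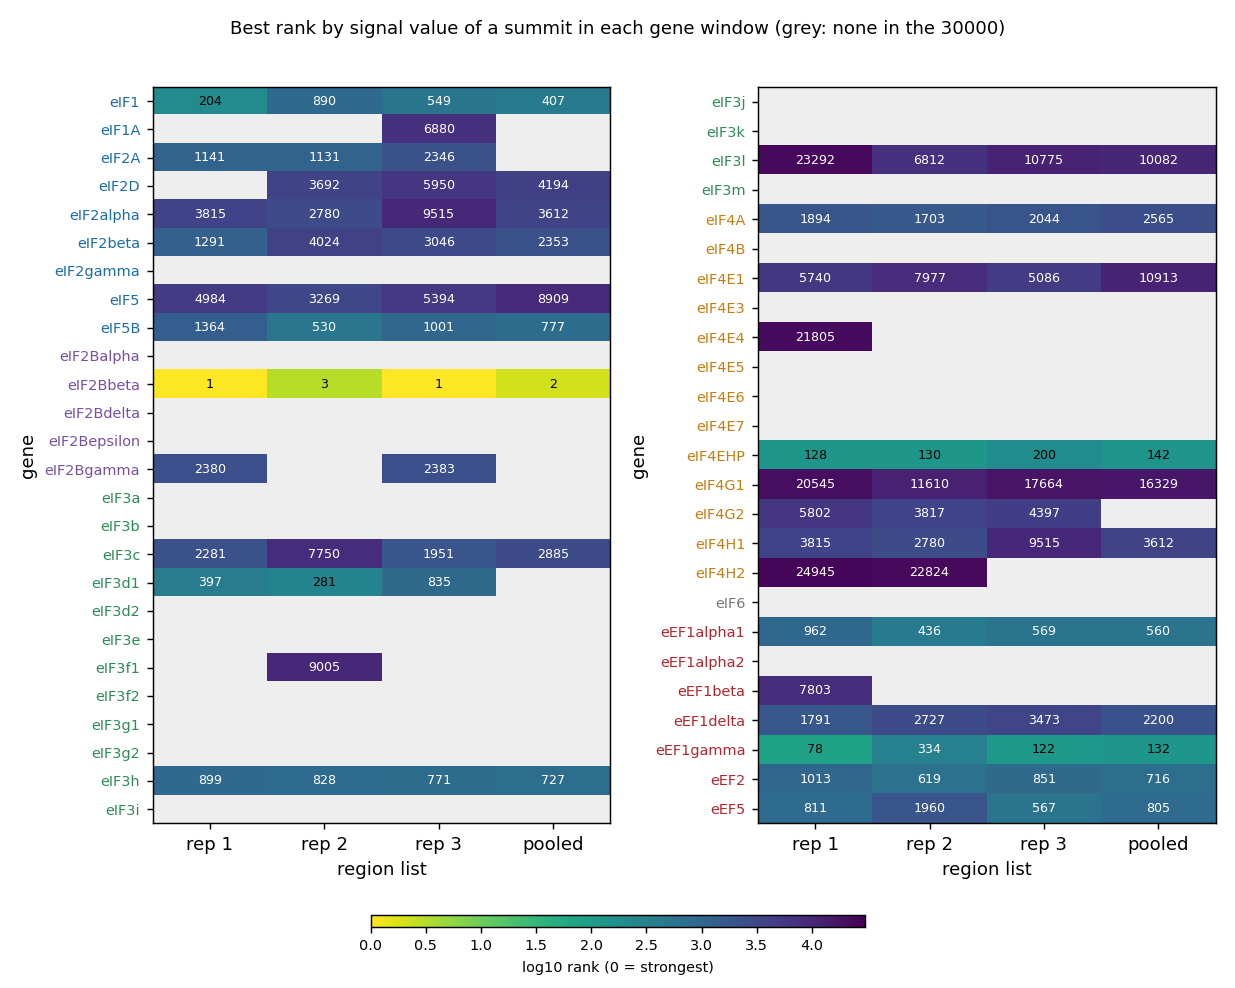
Best rank by signal value of any summit in the window of each of the 51 genes, in the lists of replicates 1 to 3 and of the pooled replicates. Colour gives the log10 rank, with yellow the strongest, and grey means that none of the 30000 regions fell in the window. The rows of eIF2A and eIF3d1 are filled in all 3 replicates (1141, 1131 and 2346, and 397, 281 and 835) and grey in the pooled list.

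For 2 genes all 3 replicates had strong regions and the pooled list, and so the IDR list, had none. The gene eIF2A, which encodes a factor described in mammals as able to deliver the initiator tRNA without eIF2, had a summit in its 5′ UTR in each replicate (3L, 21824639 to 21825074 in replicate 1), 108, 94 and 60 bp upstream of the nearer of its TSSs. The ranks were 1141, 1131 and 2346. The gene eIF3d1, for the subunit of eIF3 that contacts the mRNA cap in human cells, had a summit 1318, 1326 and 1327 bp upstream (3R, 23678663 to 23678820 in replicate 1), at ranks 397, 281 and 835. The TSS of GILT2 was the nearest there, at 174, 182 and 183 bp. No region of the pooled list overlapped any of these 6 regions. Taking the strongest regions of all 3 replicates in place of the IDR list, an alternative added once the lists had been examined, gave 13 of 51 genes (25.5%) against 13.3% of all genes. Taking either gave 17 of 51 (33.3%) against 18.3%.

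Just inside the IDR threshold stood the last eEF1alpha1 summit, with a signal value of 168.5, and that of eIF2alpha and eIF4H1, with 170.4. Just outside it stood eIF2D, a factor of non-canonical initiation and recycling in mammals, at pooled rank 4194 with a signal value of 156.8, 1644 bp upstream. In replicate 2 a region 1576 bp upstream of eIF2D, at rank 3692, was 104 bp from the TSS of Slbp, the nearest. Replicate 1 had no region in the eIF2D window. Next outside came eIF5, the GTPase activator of eIF2, at rank 8909, followed by eIF3l, eIF4E1 and eIF4G1. The gene eIF1A had a region in replicate 3 alone, at rank 6880. Of the 36 genes with no IDR summit, 22 had no region in the pooled list or in any replicate. The same share over all genes was not counted, so nothing particular to the factor genes is read from it. In the pooled list alone, 39.2% of the factor genes and 40.7% of all genes had a region in the window.

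The windows of the factor genes held 22 distinct IDR summits. Of these, 11 had a factor gene's TSS as the nearest and 11 that of another gene. Of the 15 genes, 10 had a summit nearest to their own TSS. That is 19.6% of the 51, against 13.1% of all genes, where the window alone gave 29.4% and 17.9%. The median rank of the 22 summits was 1785.5, where the median of the whole list is 1884, and 11 of the 22 lay among its stronger 1883 regions. Within 100 bp of a TSS of any gene lay 12 of 22 (54.5%), against 13.9% of all IDR summits. The window rule itself selects summits in or near genes and the whole list was not selected so, which makes these shares unlike. For the summits beside Ugalt, CG18428, RpL28 and ERp60 that TSS was not a factor gene's. Restricted to promoter summits, 11 of 14 (78.6%) lay within 100 bp of a TSS, against 36.6% of all 1435 promoter summits. Among the strongest regions of all 3 replicates, 12 of the 22 were matched within 100 bp (54.5%), against 51.5% of all IDR summits. For the strongest summit of each gene it was 10 of 15 (66.7%), against 62.5% of all genes with a summit. The replicates 1, 2 and 3 matched 16, 17 and 16 of the 22 summits, so no replicate stood apart. With a match within 50 bp, 6 of the 15 were matched (46.9% of all genes with a summit).

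The E-box CAGCTG, a form bound by MyoD factors, was within 100 bp of 0 of the 22 summits on either strand, against 15.1% of all IDR summits. An approximate upper limit for 0 of 22 is 13.6% (3 divided by 22). It takes the summits as independent, which neighbouring ones may not be, so no depletion is read from it. Within 250 bp it was present at 2 of 22, against 29.7% of all. Any E-box (CANNTG) was present at 15 of 22 (68.2%), against 66.0% of all summits. The word TATCGATA (DRE), bound by the promoter factor DREF, was present at 2 of 22 (9.09%), against 1.59% of all summits. The promoter word GGTCACACT (Ohler1) was present at 0 of 22, against 0.823% of all. The word GAGAGAG, bound by the Trl protein, was present at 0 of 22, against 6.37% of all. At the 14 promoter summits of factor genes the counts were 2 for DRE, 9 for any E-box and 0 each for CAGCTG, Ohler1 and the Trl word. Of the 1435 promoter summits of all genes, 3.9% held DRE, 64.5% an E-box, 16.2% CAGCTG, 1.81% Ohler1 and 8.85% the Trl word. Every word was searched on both strands. A word is a match of letters and not a shown binding site. The summits with DRE were those of eEF1gamma and eIF1, and the strongest region is shown beside them. The sequences are on the plus strand of dm6 from RefSeq Release 6, with DRE in capitals in the first and second and the E-box in the third.
eEF1gamma promoter (chr3R:29220096-29220180): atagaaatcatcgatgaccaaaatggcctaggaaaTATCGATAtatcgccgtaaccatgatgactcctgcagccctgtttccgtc
eIF1 and RpL28 (chr3L:3222985-3223105): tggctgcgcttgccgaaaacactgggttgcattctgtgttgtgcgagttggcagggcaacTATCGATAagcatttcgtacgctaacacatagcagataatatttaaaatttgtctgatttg
eIF2Bbeta and Ugalt (chrX:2703832-2703944): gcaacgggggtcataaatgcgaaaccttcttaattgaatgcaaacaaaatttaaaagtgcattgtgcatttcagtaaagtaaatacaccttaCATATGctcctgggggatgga

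In the eIF1 sequence the first base of the DRE word is the summit itself, and in that of eEF1gamma the word begins 25 bp before the summit on the plus strand. The stretch shown of the strongest region held 1 E-box, CATATG, which begins 40 bp after the summit.

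Factor genes with a TCT word had promoter summits in 5 of 12 cases (41.7%), and those without it in 6 of 39 (15.4%). Word and summit were each scored at any TSS of a gene, so a gene can have them at different TSSs. In eIF4A the word shown was at the TSS at 5981764, whereas the IDR summit was at 5982543, near another TSS. Over all protein-coding genes, 26.7% of 570 genes with the word and 9.91% of 13375 without it had a promoter summit. With the factor genes and the cytosolic ribosomal protein genes left out, the shares were 20.1% of 483 and 9.84% of 13318. These shares are descriptions, with no test. A TSS of another gene on the opposite strand lay within 1000 bp upstream of 7 of the 11 factor genes with a promoter summit (63.6%) and of 17 of the 40 without (42.5%). Over all protein-coding genes the shares were 45.1% of 1477 with a promoter summit and 34.1% of 12468 without.

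In the IDR list the factor genes had a promoter summit in 21.6% of cases, against 35 of 54 (64.8%) cytosolic large-subunit genes, 23 of 39 (59.0%) small-subunit genes and 10 of 73 (13.7%) mitochondrial ribosomal protein genes. In the whole pooled list their share of 31.4% at promoters lay below the 35.6% of the mitochondrial ribosomal protein genes, and in the window the shares were 39.2% and 39.7%. TCT words were found in 23.5% of the factor genes, against 85.2% and 74.4% of the genes of the cytosolic large and small subunits and 2.74% of the mitochondrial ones. Aminoacyl-tRNA synthetase genes had an IDR summit in 2 of 35 cases (5.71%), those of AlaRS and AspRS, and none at a promoter. Of the 8 mitochondrial translation factors none had one. Of 19 other genes of translation and its control, 7 (36.8%) had a summit, of which larp, an mRNA-binding regulator of ribosomal protein mRNAs (rank 49), the 4E-BP gene Thor (rank 1117) and the kinase gene S6k (rank 3130) had it at the promoter. The poly(A)-binding protein gene pAbp, Paip2, crc and cup had summits farther from their TSSs. The median length was 1966 bp for the factor genes and 6191 bp for this last list.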

How the data were processed

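ChIP-seq with an antibody to GFP was done on 3 biological replicates of whole nau-GFP embryos, per the labels. The authors deposited narrowPeak region lists on dm6, per replicate and from the pooled replicates, made against a control file, and an IDR list, per the deposited read-me files. No source used here names the aligner, the peak caller or the IDR cut-off. The deposited signal value of each region ranked it within its list, and the deposited −log10 q value served for 1 alternative ranking. The deposited summit offset gave the summit. Lists on dm3 were not used here, since no coordinates were converted.

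Each IDR region equalled the pooled region of the same rank. Protein-coding genes came from Ensembl release 115 on BDGP6, which shares its coordinates with dm6. Replicate ranks are those of the nearest summit within 100 bp of the IDR summit. Words were searched in RefSeq Release 6. Functions for assignment and matching were tested on planted summits. Other translation genes were matched by symbol for 27 of 29 listed names.

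The members and lists were chosen with earlier results of these data known. All members are named. Those with an IDR summit are given with ranks and distances, and for the rest the pooled rank of the 5 nearest to the IDR list. Regions and genes are not replicates, and no test was made. The alternatives covered windows, gene assignment, list strength, matching, words and leaving out each replicate. Computation used Python 3.11.15, numpy 2.4.6, pandas 2.3.3, scipy 1.17.1 and matplotlib 3.10.9.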

Additional observations from a re-analysis of the deposited data

How the results depend on the processing

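Of the 15 factor genes with an IDR summit in the window, the count was 8 with the gene body alone (10.1% of all genes) and 9 with the stronger 1883 regions (11.2% of all genes). The other window alternatives gave between 10 and 20 (13.1% to 40.7% of all genes), and leaving out each replicate gave 10 to 11 (12.7% to 13.2% of all genes). The promoter count of 11 was 6 with the stronger regions and 7 when any 1 replicate was left out. Genes whose strongest summit all 3 replicates matched numbered 10, and 6 with a match within 50 bp. TCT words were found in 12 genes within 10 bp of a TSS, 6 within 5 bp, 19 within 20 bp and 7 at the gene start alone. Within 250 bp of a summit, CAGCTG was found at 2 and DRE at 4 of 22 summits (29.7% and 3.34% of all summits), where 100 bp gave 0 and 2. Leaving out a replicate does not bear on the TCT words, which rest on sequence. Read depth is unknown, so what a gene without a region could have shown at greater depth was not tested.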

Other observations

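Regions of replicate 1 that were matched within 100 bp among the strongest of all 3 replicates, as many in each as the IDR list holds, numbered 1904. Of these, 24 (1.26%) had no summit of the pooled list within 500 bp. The strongest of them held rank 36 in replicate 1. The windows of 2 factor genes, eIF2A and eIF3d1, held such regions.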
